A study of Mus musculus with 9 samples.

Results

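Lipid droplets are stores of neutral lipid, wrapped in a single layer of phospholipid and in coat proteins, that form at the endoplasmic reticulum and are later fused, shielded or broken down. Fatty acid binding proteins carry fatty acids through the cytosol between membranes, droplets and the nucleus. Alveolar macrophages (AM), the resident macrophages of the airspace, take up and break down pulmonary surfactant, so they handle a large flow of lipid. The 10 genes described here were chosen by symbol: Cidec and Cidea (droplet fusion), Plin1, Plin2 and Plin3 (droplet coat), Fabp1, Fabp4 and Fabp5 (fatty acid binding), Pnpla2 (lipolysis) and Dgat1 (triglyceride synthesis). They were 10 of the 24346 genes in each table. Of the 10, 8 passed the low-expression filter and were among the 10686 genes tested, and the other 2, Cidea and Plin1, did not pass it.

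The RNA came from lung macrophages of C57BL/6 mice in 3 groups of 3 samples, at postnatal week 10 per the labels. Ctrl-AM were AM of mice given vehicle only. Tumor-AM were AM of mice whose left lung had been inoculated with LLC cells, a Lewis lung carcinoma line carrying tdTomato. Tumor-macrophage samples were the other macrophage population of such tumor-bearing lungs. All cells were sorted as CD45+ and autofluorescent, the AM as Siglec-F+ F4/80+ and the Tumor-macrophage cells as Siglec-F- F4/80+. The study also describes the AM as CD11b- and the other population as CD11b+. It does not state that CD11b was part of this sort. The tumor model rested on 1 transplanted line, and the study's methods describe separate breeding of experimental and control mice. If that split follows the tumor, tumor and breeding cannot be told apart. The labels gave no sequencing batch and did not say which samples came from the same mouse, so the p-values measure only the spread between these samples.

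Each table gave FPKM, a read count scaled by transcript length and by library depth, which allows levels of different genes to be compared per length. The FPKM of a sample summed to between 635560 and 785745, and the steps between low values gave an estimated 9770000 to 12900000 reads per sample. Siglecf, the gene for the sorted antigen Siglec-F, lay at 193.2 to 209.0 FPKM across Ctrl-AM, 164.0 to 183.2 FPKM across Tumor-AM and 0.4559 to 0.8351 FPKM in Tumor-macrophage samples. The 5 AM markers summed to 767 to 834 FPKM across Ctrl-AM, 551 to 834 FPKM across Tumor-AM and 96.2 to 119 FPKM in Tumor-macrophage samples. The AM samples carried the markers of AM, and 1 of the 5, Pparg, was lower in Tumor-AM. The 4 general macrophage markers summed to 52900 to 57800, 56200 to 83100 and 57400 to 76500 FPKM in the 3 groups. Tumor-AM 2 stood apart from the other Tumor-AM samples in some markers, chosen after their values were seen. The AM marker Marco was at 60.17, 329.1 and 95.28 FPKM in Tumor-AM 1, 2 and 3 and at 275.2, 192.4 and 193.5 FPKM in the Ctrl-AM samples, and Lyz2 was at 54360 FPKM in Tumor-AM 2 against 81270 and 80920 FPKM in the other two. The same sample was the nearest of the Tumor-AM samples to Ctrl-AM for Cidec, Plin2, Fabp1, Fabp4 and Cd36. In these bulk samples, fewer cells of a type and less RNA per cell cannot be told apart.

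Upstream sequences are shown for Plin2, the most abundant member in both AM groups, and for the 2 tested members that were under 2 FPKM in every Tumor-macrophage sample, Fabp1 and Cidec. Each is the run of 250 bases just before the RefSeq transcription start on GRCm38.p6, printed 5′ to 3′ on the strand of the gene. Capitals mark matches to AGGTCA (the core site of many nuclear receptors, read as TGACCT on the other strand), TATAAA (the TATA box) or CCAAT (the CCAAT box).
Fabp1: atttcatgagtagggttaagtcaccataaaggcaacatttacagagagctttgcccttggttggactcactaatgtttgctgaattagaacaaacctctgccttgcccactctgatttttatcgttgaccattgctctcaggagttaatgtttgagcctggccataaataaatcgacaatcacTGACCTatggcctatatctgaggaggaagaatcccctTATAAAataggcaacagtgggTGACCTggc
Plin2: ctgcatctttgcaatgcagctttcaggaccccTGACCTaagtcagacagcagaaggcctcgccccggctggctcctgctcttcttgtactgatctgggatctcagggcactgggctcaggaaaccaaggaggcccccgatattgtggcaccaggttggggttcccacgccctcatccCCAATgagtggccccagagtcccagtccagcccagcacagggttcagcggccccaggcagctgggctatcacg
Cidec: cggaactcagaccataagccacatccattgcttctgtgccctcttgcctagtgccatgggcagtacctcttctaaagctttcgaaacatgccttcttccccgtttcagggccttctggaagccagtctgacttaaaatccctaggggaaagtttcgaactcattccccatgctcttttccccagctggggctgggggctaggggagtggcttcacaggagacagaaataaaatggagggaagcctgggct
The Fabp1 run lies at chr6:71199629-71199878 on the plus strand, the Plin2 run at chr4:86670060-86670309 on the minus strand and the Cidec run at chr6:113435761-113436010 on the minus strand. Positions of a match are those of its first base relative to the start. Fabp1 held AGGTCA on the opposite strand at -67 and at -9, and TATAAA at -30. GENCODE starts this gene at 71199827, before the RefSeq start. The end of the Fabp1 run, with TATAAA and the AGGTCA at -9, thus lies inside the gene as GENCODE gives it. Plin2 held AGGTCA on the opposite strand at -218 and CCAAT at -73. None of these motifs was found in the Cidec run. RefSeq gives Cidec another start, with its run at chr6:113434765-113435014, and none of the motifs was found there either.

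Among all 32851 promoter windows of 300 bases, searched on both strands, AGGTCA occurred in 16.3%, TATAAA in 13.6% and CCAAT in 37.4%. The DR1 element, a direct repeat of AGGTCA with 1 base between the copies, was searched for as exact copies only. Such exact repeats occurred in 0.0396% of the windows and in none of the members' windows. Repeats in which a copy differs from AGGTCA were not searched for, so inexact DR1 elements may be present. A window was found for 6 of the 10 members. The matches describe letters only and were not compared with binding data.

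Tumor-AM were compared with Ctrl-AM to ask how resident AM differ in a tumor-bearing lung. Between these groups Fabp1, Cidec and Plin2 were lower in Tumor-AM, Fabp5 and Dgat1 were higher, and Fabp4, Plin3 and Pnpla2 did not pass the test. These 5 calls among the 8 tested members stand beside 10.3% of all tested genes called in this comparison. The members were chosen with earlier results of these data known, so this contrast is not independent of that choice. Without Ctrl-AM 1, 2 members and 538 genes were called, and without Ctrl-AM 3, 2 members and 549 genes, against 1100 genes with all samples. Without Tumor-AM 2 the 5 members were still called, with log2 differences of -1.75 for Fabp1, -0.86 for Cidec, -0.33 for Plin2, 0.57 for Fabp5 and 0.79 for Dgat1 (limma adjusted p from 0.00326 to 0.0287). By direction, 2 members were higher, against 7.11% of all genes, and 3 were lower, against 3.18%. The 3 samples of each group did not overlap for 5 of the 8 members, against 32.3% of all genes. The Tumor-macrophage samples were then set beside Tumor-AM to ask how the other macrophage population of tumor-bearing lungs differs. Here 7 of the 8 members were lower and Fabp5 was higher. This comparison called 48.6% of all tested genes, with 24.4% lower and 24.2% higher. Against Ctrl-AM, the same split of 7 lower and 1 higher was found, beside 54.8% of all genes called, with 27.1% lower and 27.7% higher. The groups did not overlap for any of the 8 members in either comparison, against 55.3% and 62.3% of all genes. The median log2 difference over the 8 members was -0.132, -1.39 and -1.36 in the order of these comparisons, and over all tested genes it was 0.0142, 0.00117 and -0.00824. The comparisons share samples, so they are not independent of each other. Rescaling to TPM (the same values scaled to an equal sum in every sample) moved the median of all genes to -0.109 between the AM groups and to -0.222 between Tumor-macrophage and Ctrl-AM samples. With it, the 760 higher and 340 lower genes of the first comparison became 475 and 824, and the 2960 and 2900 of the last became 2130 and 4409. Quantile normalization gave 623 and 443, and 2653 and 3453. The members' calls kept their direction and their side of the threshold under both.

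**Figure D1:**
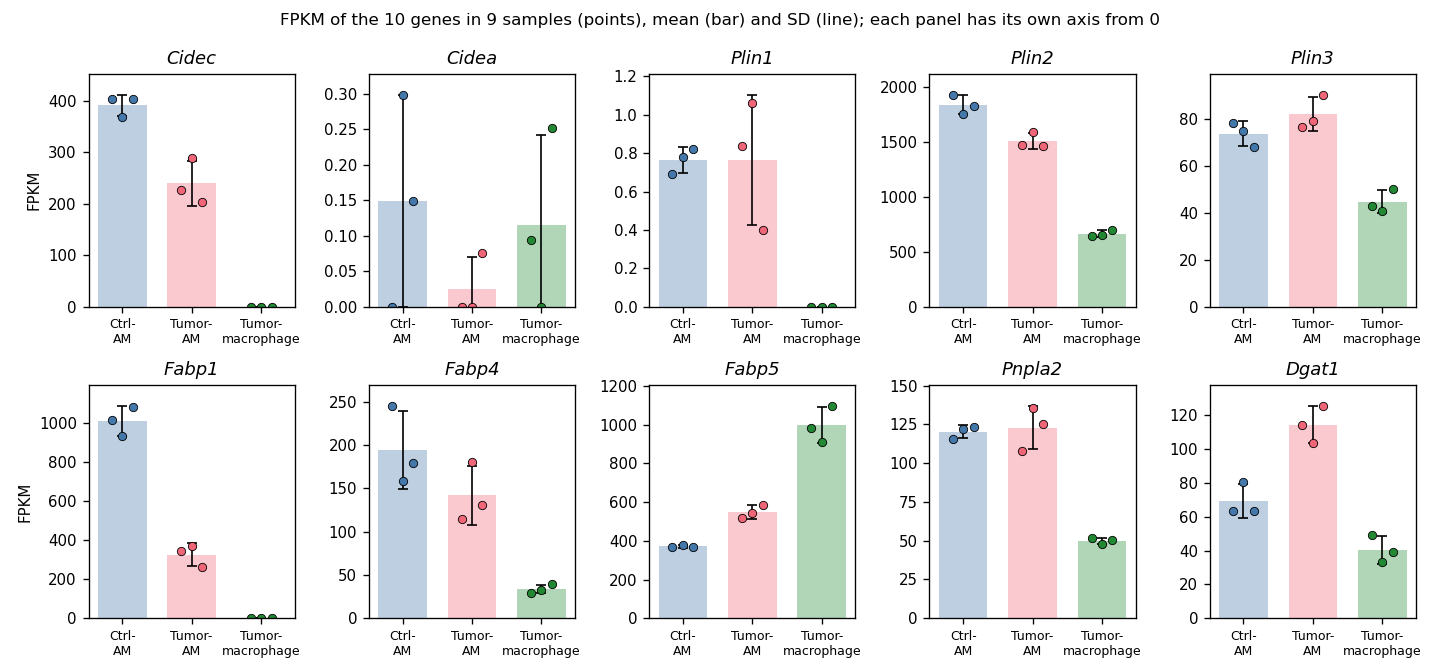
FPKM of the 10 genes in each of the 9 samples, 1 panel per gene with its own linear axis from 0; points are samples and lines give the mean and SD of the 3 samples of a group. Fabp1 and Cidec are high in all Ctrl-AM samples, intermediate across Tumor-AM and near 0 in Tumor-macrophage samples, Fabp5 runs the other way, and Dgat1 is highest in Tumor-AM.

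Cidec, which joins droplet contact sites and passes lipid from smaller to larger droplets, ranked number 234 of all genes by mean FPKM across Ctrl-AM and 425 in Tumor-AM. It lies on chromosome 6 from 113424634 to 113435760 on the minus strand of GRCm38, and its longest coding transcript has 6 exons. Its levels were 402.9, 367.9 and 403.7 FPKM across Ctrl-AM, 227.1, 288.3 and 203.6 FPKM across Tumor-AM and 0, 0 and 0.5897 FPKM in Tumor-macrophage samples. Every Tumor-AM sample was below every Ctrl-AM sample, and the Tumor-macrophage samples were at or near 0. The mean fell from 391.5 ± 20.4 to 239.7 ± 43.8 FPKM (SD, n = 3 each), 1.63-fold lower in Tumor-AM. On the scale of log2(FPKM + 1), which understates changes of low genes, the difference was -0.72 ± 0.18 (SE, limma adjusted p = 0.0313). The call was lost with a pseudocount of 0.1 (adjusted p = 0.519), without the filter (0.0826), and when any one of Ctrl-AM 1 (0.102), Ctrl-AM 2 (0.0675), Ctrl-AM 3 (0.102), Tumor-AM 1 (0.087) or Tumor-AM 3 (0.106) was left out, while the difference stayed between -0.86 and -0.61. In Tumor-macrophage 3, the value stood for about 12 reads, against 7776 to 8946 reads in the Ctrl-AM samples. The log2 difference of Tumor-macrophage samples from Tumor-AM was -7.67 with a pseudocount of 1 (adjusted p = 2.63e-10) and -10.28 with a pseudocount of 0.1, so the size of this difference depends on the pseudocount. Cidea, the relative of Cidec best known from brown fat, was close to absent. Its levels were 0, 0.2985 and 0.1493 FPKM across Ctrl-AM, 0, 0 and 0.07635 FPKM across Tumor-AM and 0.09394, 0 and 0.2514 FPKM in Tumor-macrophage samples, about 0 to 4 reads each. No order of the groups can be read at this depth.

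Plin2, the coat perilipin of most cells outside fat, was the most abundant of the 10 genes in AM. It ranked number 27 of all genes by mean FPKM across Ctrl-AM, 40 across Tumor-AM and 124 in Tumor-macrophage samples. It was measured at 1926, 1756 and 1828 FPKM across Ctrl-AM, 1469, 1592 and 1457 FPKM across Tumor-AM and 639.4, 656.1 and 696.9 FPKM in Tumor-macrophage samples. The 3 groups did not overlap, with the order Ctrl-AM, Tumor-AM, Tumor-macrophage from high to low. Plin2 was 1.22-fold lower in Tumor-AM than across Ctrl-AM, a log2 difference of -0.29 ± 0.0713 (SE, limma adjusted p = 0.0309). The call was lost without the filter (adjusted p = 0.0804), with a constant prior variance (0.0675), and when Ctrl-AM 1 (0.134), Ctrl-AM 2 (0.0608), Ctrl-AM 3 (0.102), Tumor-AM 1 (0.0788) or Tumor-AM 3 (0.0986) was left out. Tumor-macrophage samples were 2.27-fold lower than Tumor-AM (log2 difference -1.18 ± 0.0713, adjusted p = 2.44e-07).

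Plin3, a perilipin that moves from the cytosol onto young droplets, was lower in Tumor-macrophage samples than in either AM group. Its levels were 78.23, 74.88 and 68.01 FPKM across Ctrl-AM, 76.65, 79.04 and 90.23 FPKM across Tumor-AM and 42.99, 40.8 and 50.21 FPKM in Tumor-macrophage samples. The AM groups overlapped, and both lay above all Tumor-macrophage samples. Between the AM groups the log2 difference was 0.15 ± 0.098 (limma adjusted p = 0.394, 95% interval -0.0684 to 0.369), and Tumor-macrophage samples were 1.84-fold below Tumor-AM (adjusted p = 3.41e-05). Plin1, the perilipin of fat cells, stayed under the filter. It was measured at 0.6897, 0.7773 and 0.8208 FPKM across Ctrl-AM and 0.8372, 1.062 and 0.3976 FPKM in Tumor-AM, and was listed at 0 in all 3 Tumor-macrophage samples. The AM values stood for 14 to 34 reads each. In the fit without a filter, Plin1 differed by -0.02 between the AM groups (adjusted p = 1.0) and by -0.80 from Tumor-AM to the Tumor-macrophage samples (adjusted p = 0.00147). Plin2 made up most of the perilipin transcript per length, and the ratio of Plin2 to Plin3 within a sample was 25.0 ± 1.74 across Ctrl-AM, 18.5 ± 2.08 across Tumor-AM and 14.9 ± 1.1 in Tumor-macrophage samples (SD, n = 3 each).

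Fabp1, the liver-type fatty acid binding protein, showed the widest range of the binding proteins. It lies on chromosome 6 from 71199827 to 71205023 on the plus strand of GRCm38 and has 4 exons. Its levels were 1019, 934.3 and 1084 FPKM across Ctrl-AM, 347.1, 371.3 and 260.4 FPKM across Tumor-AM and 1.582, 0.6162 and 0.2822 FPKM in Tumor-macrophage samples. All groups were apart, and Fabp1 passed from rank 63 in Ctrl-AM to rank 304 in Tumor-AM. The mean fell 3.10-fold between Ctrl-AM (1013 ± 75.2 FPKM) and Tumor-AM (326.3 ± 58.3 FPKM), with a limma log2 difference of -1.65 (95% interval -2.14 to -1.15, adjusted p = 0.0017). This call held in all 18 alternatives, with adjusted p between 0.000478 and 0.0329. The Tumor-macrophage values stood for only about 9, 3 and 2 reads, and the log2 difference from Tumor-AM was -7.53 (adjusted p = 1.49e-09). The 5 hepatocyte and enterocyte markers, genes of the tissues best known for Fabp1, were each under 1 FPKM in all samples and summed to at most 0.511 FPKM.

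Fabp4, the adipocyte-type binding protein that macrophages also make, was lower in Tumor-macrophage samples and did not pass the test between the AM groups. It was measured at 245, 158.5 and 179.9 FPKM across Ctrl-AM, 114.4, 180.1 and 131.2 FPKM across Tumor-AM and 29.46, 32.33 and 39.23 FPKM in Tumor-macrophage samples. Tumor-AM 2 lay within the range of the Ctrl-AM samples, so the AM groups overlapped. The log2 difference between the AM groups was -0.45 ± 0.19 (limma adjusted p = 0.175, 95% interval -0.878 to -0.0291). Without Tumor-AM 2 it was -0.64 (adjusted p = 0.0615), which still did not pass. Tumor-macrophage samples were 4.21-fold below Tumor-AM (adjusted p = 7.85e-06).

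Fabp5, the epidermal-type binding protein, was the only tested member that was higher in both Tumor-AM and Tumor-macrophage samples than in Ctrl-AM. Its levels were 368.6, 380.3 and 367 FPKM across Ctrl-AM, 518.1, 545 and 587.1 FPKM across Tumor-AM and 984.8, 910.4 and 1096 FPKM in Tumor-macrophage samples. The 3 groups were again apart, in the opposite order to Fabp1. Fabp5 was 1.48-fold higher in Tumor-AM relative to Ctrl-AM (log2 difference 0.56 ± 0.081, limma adjusted p = 0.00245) and 1.81-fold higher in Tumor-macrophage samples than in Tumor-AM (0.85 ± 0.081, adjusted p = 7.93e-06). The first of these calls held in all 18 alternatives, with adjusted p between 0.00154 and 0.0153. Of the 913 stretches of 75 bases in its transcript, 110 also occur in 2 processed pseudogenes, Gm6166 and Gm14328, whose reads the counting could have mixed with those of Fabp5. For the other members, at most 1.599% of such stretches were shared.

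Per length, the summed level of the 3 binding proteins was 1579 ± 91.7 FPKM across Ctrl-AM, 1018 ± 67.7 FPKM across Tumor-AM and 1032 ± 97.2 FPKM in Tumor-macrophage samples (SD, n = 3 each), and its makeup differed between the groups. Fabp1 held 64.1% of this sum across Ctrl-AM, 32.0% across Tumor-AM and 0.082% in Tumor-macrophage samples (0.156%, 0.0653% and 0.0248%, or 0.0451% on average without Tumor-macrophage 1). Fabp5 held 23.6%, 54.2% and 96.7% in the same order. The ratio of Fabp5 to Fabp4 within a sample was 1.5, 2.4 and 2.04 across Ctrl-AM, 4.53, 3.03 and 4.48 across Tumor-AM and 33.4, 28.2 and 27.9 in Tumor-macrophage samples. No sample of one group reached the range of another. These ratios and shares were chosen after the values were seen and carry no test.

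**Figure D2:**
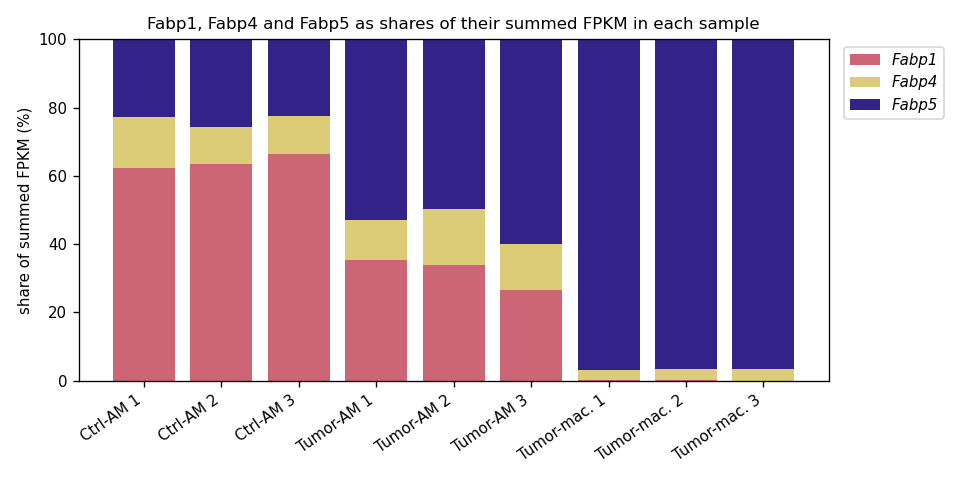
Share of the summed FPKM of Fabp1, Fabp4 and Fabp5 (percent, vertical axis) in each of the 9 samples (horizontal axis), as stacked bars. Fabp1 is the largest share in every Ctrl-AM sample, and Fabp5 is nearly the whole bar in every Tumor-macrophage sample.

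Pnpla2 encodes ATGL, the lipase that takes the first fatty acid off a triglyceride, and Dgat1 encodes an enzyme of the last step of triglyceride synthesis. Pnpla2 was measured at 115.7, 122.2 and 123.3 FPKM across Ctrl-AM, 107.8, 135.3 and 125.3 FPKM across Tumor-AM and 51.69, 47.57 and 50.46 FPKM in Tumor-macrophage samples. The Ctrl-AM values lay inside the Tumor-AM range, and the log2 difference was 0.02 ± 0.087 (limma adjusted p = 0.909, 95% interval -0.17 to 0.215). Tumor-macrophage samples were 2.46-fold below Tumor-AM (adjusted p = 5.91e-07). Dgat1 was measured at 63.51, 80.74 and 63.3 FPKM across Ctrl-AM, 114.3, 103.5 and 125.3 FPKM across Tumor-AM and 49.05, 32.96 and 39.04 FPKM in Tumor-macrophage samples. The groups were apart, and Dgat1 was the only tested member with Tumor-AM above both other groups in every sample. It was 1.65-fold higher in Tumor-AM relative to Ctrl-AM (log2 difference 0.72 ± 0.15, adjusted p = 0.012) and 2.83-fold lower in Tumor-macrophage samples than in Tumor-AM (adjusted p = 1e-05). The first call was lost when Ctrl-AM 1 (adjusted p = 0.0572) or Ctrl-AM 3 (0.0557) was left out.

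**Figure D3:**
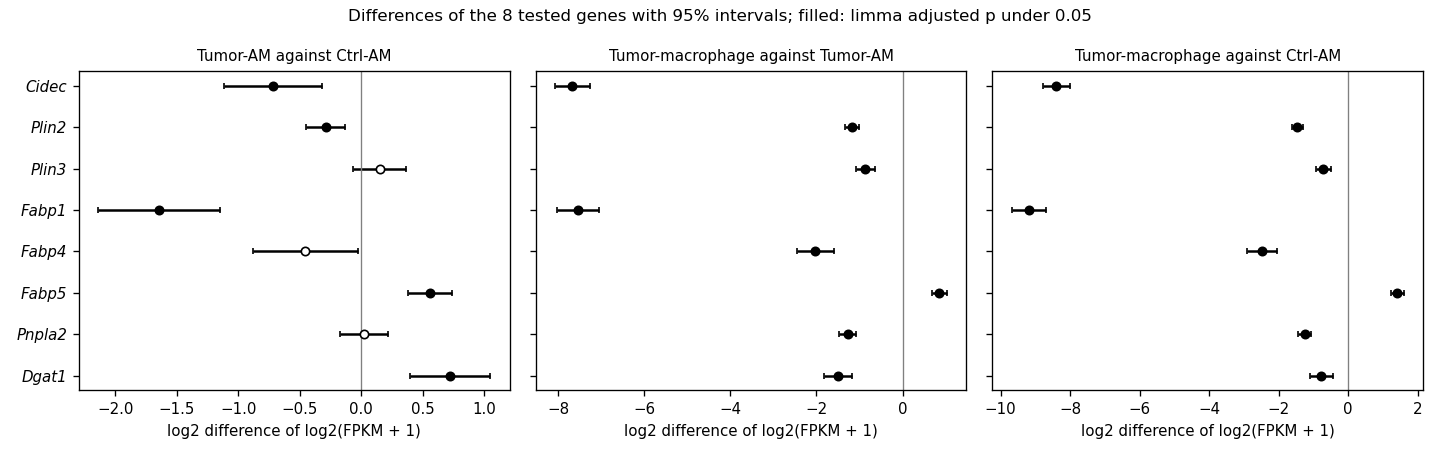
Log2 differences of log2(FPKM + 1) for the 8 tested genes in the 3 comparisons (horizontal axis), with 95% intervals; filled points passed a limma adjusted p of 0.05. Between Tumor-AM and Ctrl-AM 5 points are filled, and all 8 are filled in the comparisons with Tumor-macrophage samples, with Fabp5 alone to the right of 0.

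The other genes of droplet and fatty acid handling were taken as 7 lists with 74 genes, of which 48 were tested. Between Tumor-AM and Ctrl-AM, 5 were higher, 3 were lower and 40 did not pass, with a median log2 difference of 0.117. Over all tested genes, 7.11% were higher and 3.18% lower in this comparison. In synthesis, 2 of 12 tested genes were higher. One was Dgat2, which catalyses the same step as Dgat1, with 66.66, 68.19 and 86.04 FPKM across Ctrl-AM and 121.8, 114.7 and 135.3 FPKM in Tumor-AM. Its groups did not overlap, and the log2 difference of 0.75 (limma adjusted p = 0.00782) passed in all 18 alternatives. The other was Agpat6, an older symbol of the glycerol-3-phosphate acyltransferase gene Gpat4 (log2 difference 0.34, adjusted p = 0.0254). In lipolysis, 1 of 7 was higher: Hilpda, an inhibitor of ATGL, at 435.3, 495.6 and 480.8 FPKM across Ctrl-AM and 704.6, 599.3 and 695.9 FPKM in Tumor-AM (log2 difference 0.50, adjusted p = 0.019). In droplet biogenesis, Bscl2 (seipin) was higher by 0.30 (adjusted p = 0.0473) and Tmem159, whose product works with seipin, was lower (log2 difference -0.48, adjusted p = 0.0143) among 10 tested. Of 9 genes of uptake and activation, 0 passed in limma, and 5 were under 0.05 by unadjusted p alone (Cd36, Slc27a1, Acsl3, Acsl4 and Acsl5).

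Among 7 regulators, Pparg, the nuclear receptor that AM need for their identity and that drives many droplet genes in fat, was lower in Tumor-AM. Its levels were 184.5, 206.1 and 215.5 FPKM across Ctrl-AM, 143.5, 135.3 and 140.3 FPKM across Tumor-AM and 12.79, 12.08 and 10.46 FPKM in Tumor-macrophage samples. The groups were apart, with a log2 difference of -0.53 between the AM groups (limma adjusted p = 0.00455) that passed in all 18 alternatives. Cebpa was lower (log2 difference -0.33, adjusted p = 0.0357) and Cebpb was higher by 0.37 (adjusted p = 0.0446). Leaving out Ctrl-AM 3 alone ended the calls of Agpat6 (0.0929), Hilpda (0.0582), Bscl2 (0.167), Tmem159 (0.0546), Cebpa (0.0535) and Cebpb (0.161). Rescaling to TPM also ended those of Agpat6 (0.153), Hilpda (0.061), Bscl2 (0.194) and Cebpb (0.129). Of the 18 alternatives, the call was lost in 14 for Bscl2, 12 for Cebpb and 8 for Cebpa. It was lost in 6 for Agpat6, 6 for Hilpda and 3 for Tmem159. The fatty acid transporter gene Cd36 was measured at 211.9, 177.4 and 151.4 FPKM across Ctrl-AM and 79.6, 174.7 and 95.82 FPKM in Tumor-AM. Only Tumor-AM 2 lay within the Ctrl-AM range, and the log2 difference of -0.69 did not pass (adjusted p = 0.122) unless that sample was left out (-1.02, adjusted p = 0.00836) or the values were rescaled to TPM (-0.83, adjusted p = 0.0486).

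In the Tumor-macrophage samples, 24 of the 48 tested genes were lower and 11 higher than in Tumor-AM. Over all tested genes, 24.4% were lower and 24.2% higher in this comparison. In lipolysis 6 of 7 were lower and 1 was higher. Mgll, which splits monoglycerides at the end of lipolysis, went from a mean of 41.3 to 1.27 FPKM (log2 difference -4.26, limma adjusted p = 1.73e-08), and the ATGL inhibitors Hilpda (-2.20, adjusted p = 6.76e-08) and G0s2 (-2.79, adjusted p = 0.00012) were lower as well. Lipe, the hormone-sensitive lipase gene, was the 1 that was higher, with mean levels of 2.78 FPKM across Tumor-AM and 7.62 FPKM in Tumor-macrophage samples. In synthesis 4 were lower and 3 higher. Dgat2 fell 17.3-fold (adjusted p = 4.83e-09), against 2.83-fold for Dgat1, and the phosphatidate phosphatase gene Lpin1 went from 81.2 to 6.36 FPKM, while its relative Lpin2 was higher by 1.32. In uptake and activation 4 were higher and 3 lower. Lpl, the lipoprotein lipase gene, went from 806.6 to 74.9 FPKM (-3.43, adjusted p = 1.59e-08), and the transporter gene Slc27a1 from 18.1 to 48.5 FPKM (1.38, adjusted p = 4.31e-06).

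The remaining relatives of the members showed both directions. Cideb, another CIDE gene, went from a mean of 18.7 FPKM in Tumor-AM to 0.871 FPKM in Tumor-macrophage samples (log2 difference -3.43, limma adjusted p = 9.76e-08), and it did not differ past the threshold between the AM groups. Plin4 and Plin5 reached at most 0.0587 and 0.15 FPKM in any sample. Of 7 other binding protein genes, 2 were tested, and Fabp3, the heart-type form, was higher in Tumor-macrophage samples. Its levels were 0, 0.1846 and 0.6759 FPKM across Tumor-AM and 12.48, 2.835 and 13.54 FPKM in Tumor-macrophage samples (adjusted p = 0.000444). Across Ctrl-AM they were 0, 0.991 and 0.3305 FPKM. Fabp3 passed the filter only through the Tumor-macrophage samples, where it was high, so this p-value is not independent of the filter. Fabp7, the brain-type form, had a log2 difference of 1.05 between the AM groups that did not pass (adjusted p = 0.0675). Set against Ctrl-AM, the Tumor-macrophage samples had 15 of the 48 genes higher and 23 lower, beside 27.7% and 27.1% of all tested genes. Against Tumor-AM, the regulators were lower in 6 of 7 cases, where 24.4% of all tested genes were lower. Pparg was at -3.46 (limma adjusted p = 4.6e-10) and its partner Rxra at -1.26.

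**Figure D4:**
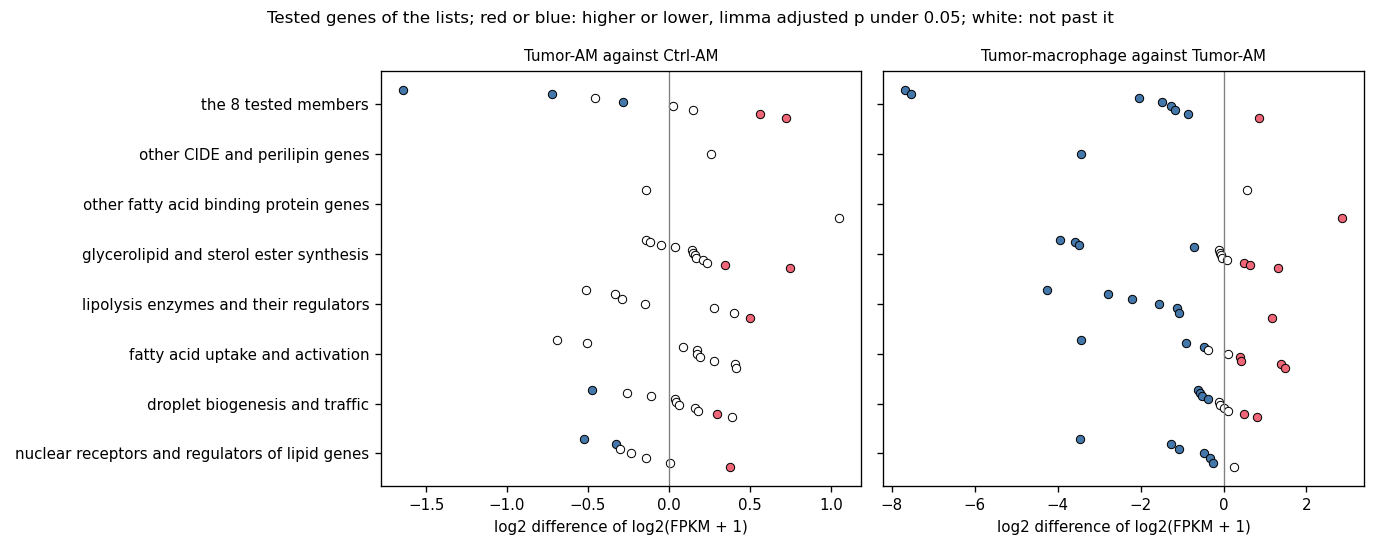
Log2 difference of log2(FPKM + 1) for each tested gene of the 7 lists, with the 8 tested members in the top row, for Tumor-AM against Ctrl-AM (left) and Tumor-macrophage against Tumor-AM (right); red is higher and blue lower at a limma adjusted p under 0.05, white did not pass. In the right panel lipolysis genes and regulators lie mostly to the left of 0, while uptake genes lie on both sides.

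Markers of other cell types were set beside these results. The 4 Tumor-macrophage (TAM) markers summed to 6.58 to 8.35 FPKM across Ctrl-AM, 11.7 to 14.3 FPKM across Tumor-AM and 149 to 193 FPKM in Tumor-macrophage samples, and 2 of the 4 were higher in Tumor-AM relative to Ctrl-AM. The excess in Tumor-AM was 3.33% of the full difference between Tumor-macrophage and Ctrl-AM means. By the same measure Tumor-AM stood 67.8% of the way for Fabp1, 38.8% for Cidec, 32.7% for Fabp4, 28.2% for Plin2 and 28.5% for Fabp5. The study itself showed these 4 genes as high in this population in its RNA-seq, so they were not picked independently of the values. The 4 markers differed from each other, so the percentage for their sum does not hold for each of them. In the order Ctrl-AM, Tumor-AM, Tumor-macrophage, the means were 1.587, 4.166 and 38.05 FPKM for Ccr2 and 5.247, 7.798 and 55.74 FPKM for Ly6c2. They were 0.4205, 0.5808 and 68.8 FPKM for Cx3cr1 and 0.2095, 0.4576 and 10.95 FPKM for Tgfb3. Of 7 adipocyte markers, 6 were under 1 FPKM in all 9 samples, with Adipoq and Cfd at 0 throughout, and the 7 summed to 1.86 to 2.7 FPKM in Ctrl-AM samples, 3.23 to 3.48 FPKM in Tumor-AM samples and 6.45 to 9.37 FPKM in Tumor-macrophage samples, and the remaining gene was Lipe of the lipolysis list. Epithelial markers summed to 71.3 to 219 FPKM across Ctrl-AM, 54.3 to 92.1 FPKM across Tumor-AM and 19.0 to 73.6 FPKM in Tumor-macrophage samples, and 0 of 4 tested had a limma p under 0.05 between the AM groups, adjusted or not. Endothelial sums were 10.6 to 12.5, 5.92 to 10.9 and 5.38 to 11.0 FPKM in the same order. The 3 neutrophil markers summed to 95.8 to 114, 89.5 to 153 and 59.1 to 94.6 FPKM, and 2 of them, S100a9 and Retnlg, were lower in Tumor-AM relative to Ctrl-AM. The call of Retnlg was lost in 9 of 17 alternatives, among them each Ctrl-AM sample left out in turn. The other neutrophil marker, S100a8, had a mean of 77.7 FPKM in Ctrl-AM and 121.3 FPKM in Tumor-AM, with groups that did not overlap and a log2 difference of 0.60 that did not pass (limma adjusted p = 0.0708). The lymphocyte sums were 9.48 to 13.5, 3.3 to 8.42 and 16.8 to 36.1 FPKM, with 1 marker lower in Tumor-AM. Fibroblast sums were 3.24 to 6.35, 7.84 to 50.1 and 6.11 to 9.55 FPKM, and Col3a1 was higher in Tumor-AM. The call of Col3a1 was lost in 5 of 17 alternatives. Tumor-AM 1, 2 and 3 had Col3a1 at 4.841, 3.468 and 21.0 FPKM and Dcn at 6.868, 4.275 and 25.72 FPKM. Dcn, the other of the 2 tested, did not overlap between the AM groups, and its log2 difference of 1.585 did not pass (limma adjusted p = 0.0666). The part of these cells in the members' differences was not tested.

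The members' profiles over the 9 samples were compared with those of 7130 genes of at least 5 FPKM on average, as the root mean square distance of centred log2 values. Cidec was nearest to the keratin genes Krt79 (0.237) and Krt19 (0.361) and to Ear2 (0.479). Fabp1 was nearest to Krt19 (0.503), Cidec (0.574) and Krt79 (0.618). Krt79 went from 334.8 to 238.5 to 0.1941 FPKM and Krt19 from 808.1 to 481.4 to 0.533 FPKM over the 3 groups in the order Ctrl-AM, Tumor-AM, Tumor-macrophage. Fabp5 was nearest to Gla (0.0692), Rnf149 and H2-D1, and Plin2 to Dstn (0.0583), Tor1aip2 and Xbp1. Plin3 was near to Ell and Gpx4, Fabp4 to Cenpo, Ptpn12 and Pex11a, Pnpla2 to Pqlc3, Taldo1 and Cd47, and Dgat1 to Sema4b, Tmem180 and Tctn1. These distances describe likeness of level across samples and carry no test.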

How the data were processed

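RNA of sorted lung macrophages was made into SMART-Seq HT and Nextera libraries and sequenced as single-end reads of 75 bases. The authors aligned the reads to mm10, and the submitters' processing notes name TopHat2 2.1.1, Bowtie2 and Cuffdiff 2.2.1. The deposited FPKM values (1 table per sample, 24346 genes) come from the authors' Cufflinks suite. The gene annotation, strand setting and treatment of multiply mapping reads are not given in the sources used here, so reads shared with pseudogenes could raise or lower a level. Samples were grouped by their labels.

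Values were taken as log2(FPKM + 1), genes with at least 1 FPKM in at least 3 of the 9 samples were kept (10686), and the 3 groups were fitted together with limma 3.58.1 (trend) in R 4.3.3. All adjusted p are limma's, two-sided, by Benjamini-Hochberg over all tested genes, with a threshold of 0.05. The fit was tested on simulated data. Since FPKM are not counts, no count test was run and no interval for counting error is given; reads per sample and per gene were estimated from the steps between low values and GENCODE lengths. Of all genes, the text names the members, genes of 7 lists from the field, cell type markers, and the 3 genes nearest in profile to each tested member, of which 1 is not reported here. Members and lists were chosen with earlier results of these data known. Ly6g was not analysed here. Promoter windows came from RefSeq, coordinates of genes from GENCODE vM21 (both GRCm38). Alternatives were another pseudocount, no filter or one of 5 FPKM, 3 other scalings, a prior variance held constant, fitting only the groups being compared, a replicate block and each sample left out.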

Additional observations from a re-analysis of the deposited data

How the results depend on the processing

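Of the 144 refits of members between Tumor-AM and Ctrl-AM, 18 lost a call. Cidec and Plin2 lost it in 8 of 18 refits each, Dgat1 in 2 of 18, and Fabp1 and Fabp5 in none. The 144 include the refits of Plin3, Fabp4 and Pnpla2, which had no call to lose. No called difference changed its sign, while that of Pnpla2, which was not called, ranged from -0.1156 to 0.1127. In each of the other 2 comparisons, none of the 144 refits changed a call. The 5 members called between the AM groups became 3 without the filter and 2 to 5 when 1 sample was left out, with 2 without Ctrl-AM 1 and also without Ctrl-AM 3. Over all genes, the 1100 called ranged from 538 (without Ctrl-AM 1) to 1254 with 1 sample left out, and was also moved without Ctrl-AM 2 (690), Ctrl-AM 3 (549), Tumor-AM 1 (733) or Tumor-AM 3 (674). Leaving out a sample gave 4701 to 5007 genes between Tumor-macrophage and Tumor-AM and 5214 to 5863 between Tumor-macrophage and Ctrl-AM, with all 8 members called each time. Cd68, a macrophage marker, at 0.14 in the fit as reported, turned to -0.21 (limma adjusted p = 0.0239) from Tumor-AM to Tumor-macrophage samples with quantile normalization, and the cause was not tested. Of 378 counts over lists, 47 moved by more than 1.5 times. Samples share replicate numbers, but over 9 same-numbered pairs the mean correlation of deviations was 0.0547 (-0.0615 to 0.159). Not every pair was over 0.1, so the numbers were not taken to pair them. Pairs with a Ctrl-AM sample join different mice. This mean therefore cannot decide whether Tumor-AM and Tumor-macrophage samples of the same number share a mouse. Among Tumor-AM and Tumor-macrophage samples each sample correlated best with its own number (0.026, 0.0964 and 0.109, against at most 0.00617 for other numbers). Deviations from a group mean cancel out within the group for each gene, so these correlations depend on each other. They are small and cannot decide whether samples of the same number share a mouse. With the replicate block, 3 members were called between the AM groups (Cidec 0.0523 and Plin2 0.054 were lost), with 938 genes in all, 872 of them shared with the fit without it, and no member's call changed in the other comparisons. Low depth limits Cidea, Plin1 and the Tumor-macrophage values of Cidec and Fabp1 most, as these rest on few reads.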
